A study of Homo sapiens with 32 samples.

Results

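The 37 genes of the human mitochondrial chromosome were examined in Caco-2 cells, a colon adenocarcinoma line whose cells resemble intestinal epithelium. All genes annotated on chrM were taken as members, which gave 13 mRNA genes, 2 rRNA genes and 22 tRNA genes out of 60107 genes in the count table, of which 30677 had at least 1 count. The libraries were 3′ tag RNA-seq (Lexogen QuantSeq), in which cDNA is primed from runs of A with oligo(dT) and the tags fall close to the priming site. cl.21 is a single HIF1A-null Caco-2 clone made with CRISPR, so what is particular to the knockout and what is particular to the clone cannot be told apart. The e.v. line carries the same lentiviral inducible Cas9 with an empty guide vector, and cl.21 and e.v. both passed through neomycin and puromycin selection. WT is the unedited line. Each line was grown in the HoxBan tube with Faecalibacterium prausnitzii strain A2-165 (co-culture), in the HoxBan tube without it (monoculture), and as 2D culture. In a HoxBan tube the cells sit on a coverslip that faces anaerobic YCFAG agar, with oxygenated cell medium above it, and in co-culture the bacterium grows in that agar. Each of the 9 groups had 3 libraries except WT 2D, which had 4. A further 4 WT libraries were single and entered no test. They were monoculture with inulin or with mucin in YCFA, and stool with either of these. The labels leave it unsaid whether replicate libraries were grown as separate cultures, and the p-values therefore cover the spread among these libraries only, which may be technical.

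The 28 libraries held 4144373 to 6686797 counts (median 4917010). Epithelial markers such as EPCAM (989 to 1909 CPM) were detected in all 28, while CDX1 was at 0 in 23 of them, LGALS4 was at 0 in 9 and KRT20 was low (median 1.41 CPM). HIF1A tags do not check the knockout, because a 3′ tag need not lie at the edited site, and HIF1A stood at 82.8 to 216 CPM in cl.21 and at 148 to 351 CPM in e.v. Levels are given as CPM, the counts of a gene scaled to a common library size after TMM scaling, and libraries are listed in the order of their numbers. No pair of libraries of a group agreed within counting noise (lowest chi-square per degree of freedom 4.04).

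The mitochondrial chromosome is transcribed from both strands as long RNAs that are cut apart mainly at the tRNAs lying between the other genes. The mRNAs, rRNAs and tRNAs released in this way then differ in stability. The 13 mRNAs encode subunits of respiratory complexes I, III, IV and V, the rRNAs MT-RNR1 (12S) and MT-RNR2 (16S) build the mitochondrial ribosome, and the tRNAs read its codons. In intestinal epithelium, as in other tissues, these transcripts provide the mitochondrial part of oxidative phosphorylation. Of the 37 genes, 28 lie on the plus strand of the reference chromosome and 9 on the minus strand, which are MT-ND6 and 8 tRNA genes.

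The genes below carried the comparisons. The sequences are from the GRCh38 reference chromosome, 5′ to 3′ along each gene and written as DNA. The first 7 tRNA genes had fewer counts in monoculture than in 2D in all 3 lines, and MT-TV and MT-TL1 follow as the abundant tRNA genes that did not. Capitals mark the anticodon.
MT-TM (chrM:4402-4469, plus strand): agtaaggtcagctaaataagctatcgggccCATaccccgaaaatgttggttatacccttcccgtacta
MT-TC (chrM:5761-5826, minus strand): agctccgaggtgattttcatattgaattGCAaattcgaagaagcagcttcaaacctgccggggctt
MT-TI (chrM:4263-4331, plus strand): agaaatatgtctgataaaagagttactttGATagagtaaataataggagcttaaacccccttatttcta
MT-TY (chrM:5826-5891, minus strand): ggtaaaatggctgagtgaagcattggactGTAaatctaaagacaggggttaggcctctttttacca
MT-TP (chrM:15956-16023, minus strand): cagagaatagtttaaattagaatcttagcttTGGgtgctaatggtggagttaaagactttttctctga
MT-TF (chrM:577-647, plus strand): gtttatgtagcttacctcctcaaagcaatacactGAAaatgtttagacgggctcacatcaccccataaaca
MT-TS2 (chrM:12207-12265, plus strand): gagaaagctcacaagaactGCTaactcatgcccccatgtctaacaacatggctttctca
MT-TV (chrM:1602-1670, plus strand): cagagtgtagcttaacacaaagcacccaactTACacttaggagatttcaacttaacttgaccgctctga
MT-TL1 (chrM:3230-3304, plus strand): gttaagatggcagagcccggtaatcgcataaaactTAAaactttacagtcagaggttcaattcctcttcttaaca

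The next 3 stretches show, in capitals, the longest encoded run of A within MT-RNR2, MT-CO1 and MT-ND6. Oligo(dT) can prime at such runs as well as at A tails. A tails are not part of the reference sequence and are not shown. The genes are the 16S rRNA with the most counts, the mRNA that was called in all 3 lines, and the mRNA of the minus strand.
MT-RNR2 (chrM:2445-2474, plus strand): taaggaaaggttAAAAAAAgtaaaaggaac
MT-CO1 (chrM:6680-6709, plus strand): ttactactccggAAAAAAAgaaccatttgg
MT-ND6 (chrM:14338-14367, minus strand): gtgctgtgggtgAAAgagtatgatggggtg
MT-RNR2 and MT-CO1 each hold a run of 7 A, while the longest in MT-ND6 is 3. Runs of this length are not particular to MT-RNR2 and MT-CO1. MT-ND2 and MT-ND4 also hold 7 A and MT-ND5 holds 8. Whether run length went with the counts of a gene or with its change between cultures was not tested. Whether priming at such runs produced any of the counts was not tested.

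MT-TM carries methionine, MT-TC cysteine, MT-TI isoleucine, MT-TY tyrosine, MT-TP proline, MT-TF phenylalanine, MT-TS2 and MT-TS1 serine, MT-TV valine, and MT-TL1 and MT-TL2 leucine. MT-TF, MT-RNR1, MT-TV, MT-RNR2 and MT-TL1 lie next to each other in this order at the start of the heavy-strand transcript, and MT-TM lies directly before MT-ND2. A mature tRNA is short, has no encoded run of A at its 3′ end for the primer and is poorly retained by silica columns such as the RNeasy column used here. Counts on a tRNA gene cannot be told apart from counts of a longer RNA that spans it. No source used here gives the strand setting of the counting, so MT-TI with MT-TQ, which overlap by their ends on opposite strands, are uncertain. MT-TC with MT-TY, MT-ATP8 with MT-ATP6, and MT-ND4L with MT-ND4 overlap on the same strand and are uncertain too.

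Over the 28 libraries the 37 genes took 16929978 counts. The 2 rRNA genes held 56.8% of these, the 13 mRNA genes 41.6% and the 22 tRNA genes 1.58%. MT-RNR2 alone held 50.4%, MT-ND4 (a complex I subunit) 8.48%, MT-CO3 (a cytochrome c oxidase subunit) 6.49% and MT-RNR1 6.37%. Per base of gene length, MT-RNR2 had 5474 counts per base, MT-ATP8 3344, MT-TL1 1909 and MT-RNR1 1130, against 24.3 for MT-ND6. A 3′ tag count does not scale with length, so this per-length order is a description only. Among the tRNA genes, MT-TL1, MT-TF and MT-TV held 92.1% of the counts.

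In the edgeR test, 28 of the 37 members passed the filter on low counts, which were the 13 mRNA genes, the 2 rRNA genes, 10 plus-strand tRNA genes and 3 minus-strand tRNA genes. A tRNA gene can pass this filter through 2D alone, so the counts of tRNA genes below describe those that passed and do not stand for all 22. The other 9 were tRNA genes with almost no counts. MT-TK (lysine) and MT-TN (asparagine) had 0 counts in every library, MT-TW (tryptophan) had 5 in all 28, MT-TE (glutamate) 36, MT-TS1 37, MT-TQ (glutamine) 48, MT-TD (aspartate) 48, MT-TA (alanine) 49 and MT-TR (arginine) 69.

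The mitochondrial share of all counts was higher on average in monoculture than in 2D in each line, with overlapping libraries. In cl.21 it averaged 12.1% ± 4.98 in monoculture and 8.69% ± 5.77 in 2D (SD, n = 3 each). In e.v. it averaged 15.2% ± 7.48 in monoculture and 9.47% ± 6.56 in 2D (SD, n = 3 each). In WT it averaged 11.1% ± 4.58 in monoculture (SD, n = 3) and 7.60% ± 4.36 in 2D (SD, n = 4). The ratio of the means was thus 1.39 in cl.21, 1.61 in e.v. and 1.46 in WT, which is less than the spread between libraries. Without any 1 library it ran from 1.07 to 2.23 in cl.21 (lowest without monoculture library 24, highest without 2D library 1), from 1.18 to 2.68 in e.v. (monoculture library 25 and 2D library 26) and from 1.16 to 2.03 in WT (monoculture library 19 and 2D library 12). No p is given for a sum over the members.

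Single libraries decided these means. In cl.21 the share was 23.6%, 12.1% and 13.2% in co-culture, 10.7%, 7.91% and 17.6% in monoculture, and 15.3%, 6.32% and 4.49% in 2D. In e.v. it was 19.6%, 15.0% and 10.5% in co-culture, 8.52%, 13.8% and 23.3% in monoculture, and 5.79%, 17.0% and 5.58% in 2D. In WT it was 7.79%, 18.5% and 20.4% in co-culture, 6.36%, 15.5% and 11.3% in monoculture, and 4.94%, 5.09%, 14.1% and 6.30% in 2D. One 2D library of each line stood apart, namely library 1 of cl.21, library 26 of e.v. and library 12 of WT, at 14.1% to 17.0%, while the other 7 lay between 4.49% and 6.32%. The tRNA share of the mitochondrial counts was the lowest of its group in each of these libraries, at 1.17%, 1.91% and 1.80%. Without these 3 libraries, a choice made after seeing the data, the share was 2.23 times as high in monoculture as in 2D in cl.21, 2.68 times in e.v. and 2.03 times in WT, and monoculture and 2D did not overlap in any line.

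**Figure D1:**
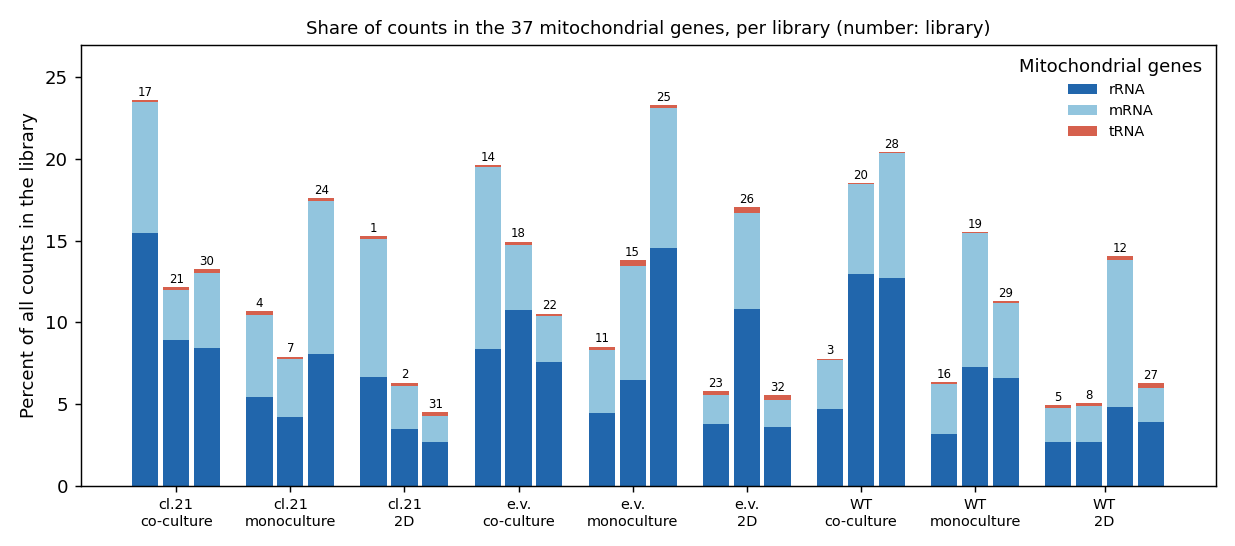
Mitochondrial share of all counts (percent, vertical axis) in each library of the 9 groups, with co-culture, monoculture and 2D from left to right within each line. Each bar is a library, stacked by rRNA, mRNA and tRNA genes and topped by its library number, and 1 of the 2D libraries in each line reaches 14.1% to 17.0% while the other 7 stay at 4.49% to 6.32%.

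Co-culture and monoculture also overlapped in share. The mean was 16.3% ± 6.32 in cl.21 co-culture, against 12.1% in its monoculture, a ratio of 1.35. In e.v. co-culture it was 15.0% ± 4.55, against 15.2% in monoculture, a ratio of 0.989. In WT co-culture it was 15.6% ± 6.82, against 11.1% in monoculture, a ratio of 1.41. Between cl.21 and e.v. the ratio of means was 1.09 in co-culture, 0.793 in monoculture and 0.918 in 2D, again with overlapping libraries in each. The 2D ratio was 0.570 without cl.21 library 1, 1.53 without e.v. library 26 and 0.950 without both. Without the 2 rRNA genes the cl.21 share was lower in co-culture than in monoculture, with a log2 ratio of means of -0.19, against 0.44 with them. The ratio without the rRNA genes was -0.12 on that scale in e.v. and 0.02 in WT, against -0.02 and 0.49 with them.

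Within the mitochondrial counts, the tRNA genes held a smaller part in the HoxBan tube than in 2D. They took 1.16% ± 0.653 in cl.21 co-culture, 1.79% ± 0.736 in monoculture and 3.29% in 2D. In e.v. they took 1.15% in co-culture, 1.97% in monoculture and 3.81% in 2D. In WT they took 0.509% in co-culture, 1.195% in monoculture and 3.49% in 2D. The order of the means was the same in all 3 lines, with co-culture lowest and 2D highest, but single libraries overlapped. Without the 3 2D libraries of high share, the tRNA part in 2D averaged 4.36% in cl.21, 4.77% in e.v. and 4.06% in WT. Over all 28 libraries the tRNA part ran from 0.303% to 2.66% (median 1.16%) in the 18 HoxBan libraries and from 1.17% to 5.48% (median 3.79%) in the 10 2D libraries. As a percent of all counts, tRNA genes ran from 0.0582% to 0.352% (median 0.148%) in HoxBan and from 0.158% to 0.325% (median 0.234%) in 2D. The 9 minus-strand genes together took 0.0251% to 0.132% of the mitochondrial counts in HoxBan and 0.190% to 0.549% in 2D, and these ranges did not overlap.

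The rRNA part was higher in co-culture than in monoculture in 2 of the 3 lines without overlap. In cl.21 it was 63.6% to 73.6% in co-culture and 46.0% to 53.5% in monoculture. In WT it was 60.2% to 70.0% in co-culture and 46.9% to 58.3% in monoculture. In e.v. it was 42.5% to 71.9% in co-culture and 47.0% to 62.5% in monoculture, and the overlap came from co-culture library 14. The mRNA part moved the other way, averaging 31.2% in cl.21 co-culture and 48.2% in its monoculture. It averaged 36.8% in e.v. co-culture and 44.1% in monoculture, and 35.3% in WT co-culture and 47.2% in monoculture. In 2D the mRNA part averaged 44.0% in cl.21, 31.5% in e.v. and 45.5% in WT, and without the 3 libraries of high share 38.4%, 30.0% and 39.4%.

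MT-RNR2 carried most of the rRNA part. In cl.21 cells MT-RNR2 stood at 159400, 87950 and 80480 CPM in co-culture, 45270, 36570 and 74720 CPM in monoculture, and 58420, 26400 and 19210 CPM in 2D. In e.v. cells MT-RNR2 had 83670, 108800 and 76840 CPM in co-culture, 38380, 58220 and 146500 CPM in monoculture, and 27700, 88940 and 25920 CPM in 2D. WT cells had MT-RNR2 at 47290, 138300 and 130600 CPM in co-culture, 27030, 71840 and 58350 CPM in monoculture, and 20140, 19970, 41250 and 30050 CPM in 2D. The highest levels were in HoxBan libraries, but in each line the 2D library with the high mitochondrial share overlapped them. As a percent of the mitochondrial counts, MT-RNR2 took 59.6%, 65.3% and 56.2% in cl.21 co-culture, against 44.5%, 47.5% and 41.7% in monoculture. It took 38.1%, 64.5% and 63.9% in e.v. co-culture, against 46.2%, 40.6% and 55.7% in monoculture. It took 54.7%, 64.1% and 56.1% in WT co-culture, against 43.5%, 43.1% and 50.8% in monoculture. Co-culture lay above monoculture in all libraries of cl.21 and WT, and in 2 of 3 libraries of e.v.

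In cl.21 cells MT-RNR1 stood at 15940, 11240 and 10600 CPM in co-culture, 6151, 4559 and 7696 CPM in monoculture, and 6310, 2982 and 3770 CPM in 2D. In e.v. cells MT-RNR1 had 9670, 12350 and 9496 CPM in co-culture, 5086, 9249 and 17780 CPM in monoculture, and 5284, 15380 and 4787 CPM in 2D. WT cells had MT-RNR1 at 4778, 12840 and 14290 CPM in co-culture, 3812, 6263 and 8602 CPM in monoculture, and 2797, 3236, 6203 and 5251 CPM in 2D. MT-RNR1, the rRNA of the small ribosomal subunit, overlapped between monoculture and 2D in every line. In edgeR's quasi-likelihood test, monoculture against 2D gave a log2 fold change of 0.59 in cl.21, 0.77 in e.v. and 0.91 in WT for MT-RNR2 (adjusted p = 0.477, 0.317 and 0.220), and 0.49, 0.34 and 0.51 for MT-RNR1 (adjusted p = 0.492, 0.641 and 0.458).

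Monoculture against 2D was the comparison in which members changed most often. In cl.21, 7 of the 28 members tested were lower (25.0%, beside 10.0% of all 12849 genes tested) and 2 were higher (7.14%, beside 10.1% of all genes). In e.v., 7 were lower (25.0%, beside 11.3%) and 3 were higher (10.7%, beside 10.3%). In WT, 10 were lower (35.7%, beside 8.59%) and 1 was higher (3.57%, beside 6.19%). A call was a Benjamini-Hochberg adjusted p under 0.05 over all genes tested. All of the lower members were tRNA genes. Because such genes can pass the filter through 2D alone and then can be called in 1 direction only, their share is not read as an excess over all genes. MT-TF, MT-TI, MT-TM, MT-TC, MT-TY, MT-TS2 and MT-TP fell in all 3 lines, MT-TH (histidine), MT-TL2 and MT-TT (threonine) were called lower in WT only, and MT-CO1 rose in all 3 lines. Whether the calls found in WT alone differed between lines was not tested.

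**Figure D2:**
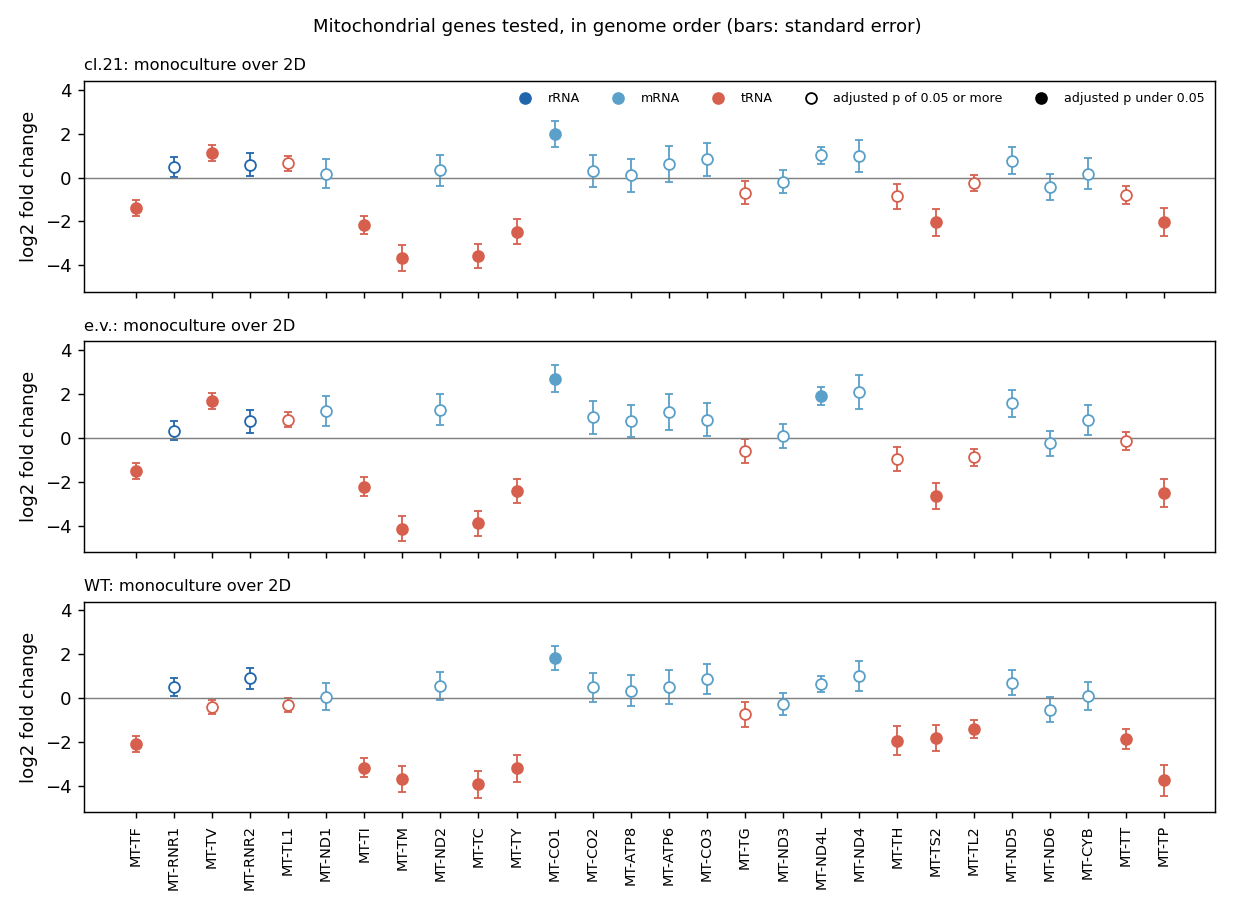
Log2 fold change of monoculture over 2D (vertical axis) with its standard error for the 28 members tested (horizontal axis), in a panel for each line. Filled points passed the test: MT-CO1 lies above 0 in all 3 lines at 1.83 to 2.70, and MT-TM and MT-TC lie far below it at -3.57 to -4.13.

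The change was large for MT-TM, the tRNA gene for methionine. In cl.21 cells MT-TM stood at 4.37, 9.89 and 35.6 CPM in co-culture, 7.21, 4.96 and 5.33 CPM in monoculture, and 56.7, 66.0 and 101 CPM in 2D. In e.v. cells MT-TM had 7.26, 40.7 and 12.8 CPM in co-culture, 4.57, 8.82 and 7.92 CPM in monoculture, and 109.9, 173 and 89.0 CPM in 2D. WT cells had MT-TM at 3.86, 7.14 and 5.77 CPM in co-culture, 3.82, 3.05 and 6.83 CPM in monoculture, and 24.2, 72.4, 79.8 and 58.7 CPM in 2D. Every monoculture library lay below every 2D library, by a wide margin. The log2 fold change of monoculture over 2D was -3.66 ± 0.583 in cl.21, -4.13 ± 0.588 in e.v. and -3.67 ± 0.587 in WT (SE), with adjusted p = 7.19e-05, 1.82e-05 and 0.000114. Co-culture libraries were also low apart from library 30 of cl.21 and library 18 of e.v. As a percent of the mitochondrial counts MT-TM ran from 0.0016% to 0.0249% in HoxBan and from 0.0382% to 0.263% in 2D, without overlap.

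MT-TC and MT-TY, the neighbouring minus-strand genes for cysteine and tyrosine, fell together. In cl.21 cells MT-TC stood at 0.273, 0.520 and 0.254 CPM in co-culture, 1.12, 0 and 0.952 CPM in monoculture, and 9.45, 10.9 and 6.64 CPM in 2D. In e.v. cells MT-TC had 0.227, 0.476 and 0.503 CPM in co-culture, 0.398, 1.39 and 0.233 CPM in monoculture, and 6.39, 17.2 and 6.87 CPM in 2D. WT cells had MT-TC at 0.406, 0.765 and 0 CPM in co-culture, 0.364, 0.235 and 0.402 CPM in monoculture, and 3.73, 6.80, 6.11 and 5.21 CPM in 2D. MT-TC stood at 0 to 1.39 CPM in HoxBan libraries and was separated from 2D in every line. Its log2 fold change was -3.57 ± 0.531 in cl.21, -3.89 ± 0.559 in e.v. and -3.92 ± 0.625 in WT (adjusted p = 3.34e-05, 1.98e-05 and 0.000108). In cl.21 cells MT-TY stood at 9.29, 2.34 and 5.34 CPM in co-culture, 14.9, 1.13 and 5.52 CPM in monoculture, and 37.4, 45.7 and 40.7 CPM in 2D. In e.v. cells MT-TY had 7.94, 5.24 and 3.02 CPM in co-culture, 7.55, 16.5 and 15.8 CPM in monoculture, and 58.8, 85.3 and 67.9 CPM in 2D. WT cells had MT-TY at 0, 1.53 and 4.38 CPM in co-culture, 1.45, 2.35 and 8.63 CPM in monoculture, and 17.5, 43.2, 49.2 and 42.7 CPM in 2D. The highest HoxBan value of MT-TY, 16.5 CPM, lay just below the lowest 2D value, 17.5 CPM. The log2 fold changes of MT-TY were -2.46 ± 0.579 in cl.21, -2.42 ± 0.563 in e.v. and -3.19 ± 0.612 in WT (adjusted p = 0.00338, 0.00297 and 0.000717). These genes adjoin on the same strand and share base 5826 of the chromosome, so their falls are not counted as separate events.

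MT-TP, the minus-strand gene for proline, stood at the far end of the chromosome and behaved likewise, with more spread. In cl.21 cells MT-TP stood at 32.8, 4.42 and 15.0 CPM in co-culture, 32.2, 5.42 and 23.4 CPM in monoculture, and 84.2, 83.7 and 86.1 CPM in 2D. In e.v. cells MT-TP had 10.4, 16.7 and 4.78 CPM in co-culture, 3.38, 37.4 and 40.3 CPM in monoculture, and 97.8, 236 and 125 CPM in 2D. WT cells had MT-TP at 2.03, 5.36 and 6.00 CPM in co-culture, 1.64, 4.69 and 9.84 CPM in monoculture, and 34.6, 79.8, 116 and 57.3 CPM in 2D. Monoculture lay below 2D in all libraries of each line. For MT-TP the change on the log2 scale was -2.03 ± 0.644 in cl.21, -2.51 ± 0.650 in e.v. and -3.75 ± 0.724 in WT (adjusted p = 0.0260, 0.00659 and 0.000799). In cl.21 the call was lost without library 7 or 24 of monoculture (log2 fold change -1.60 and -2.13) or without library 1, 2 or 31 of 2D (-2.04, -2.04 and -2.02).

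MT-TI, the plus-strand gene for isoleucine, was low but well separated. In cl.21 cells MT-TI stood at 0.820, 0.520 and 1.78 CPM in co-culture, 2.08, 0.903 and 1.33 CPM in monoculture, and 4.73, 6.36 and 8.95 CPM in 2D. In e.v. cells MT-TI had 0.454, 0.238 and 1.01 CPM in co-culture, 1.99, 2.32 and 0.466 CPM in monoculture, and 9.67, 7.33 and 5.70 CPM in 2D. WT cells had MT-TI at 0.203, 0.510 and 0.692 CPM in co-culture, 0.909, 1.17 and 0.602 CPM in monoculture, and 8.20, 5.53, 7.96 and 10.8 CPM in 2D. No HoxBan library exceeded 2.32 CPM and no 2D library was under 4.73 CPM. MT-TI changed on the log2 scale by -2.15 ± 0.418 in cl.21, -2.22 ± 0.425 in e.v. and -3.16 ± 0.445 in WT (adjusted p = 0.000604, 0.000498 and 2.88e-05). MT-TQ, which overlaps MT-TI by its end on the other strand, had 0 counts in all 18 HoxBan libraries, against 1 to 10 counts in each of the 10 2D libraries (48 in all). A count of 0 among 86644752 allows up to 0.0346 CPM (3 counts, unscaled totals), against 0.886 CPM in 2D, over the pooled libraries. The ratio of these values is 25.6. It leaves out the error of the 48 counts in 2D and the spread between libraries, so it is not a lower limit of the fold.

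**Figure D3:**
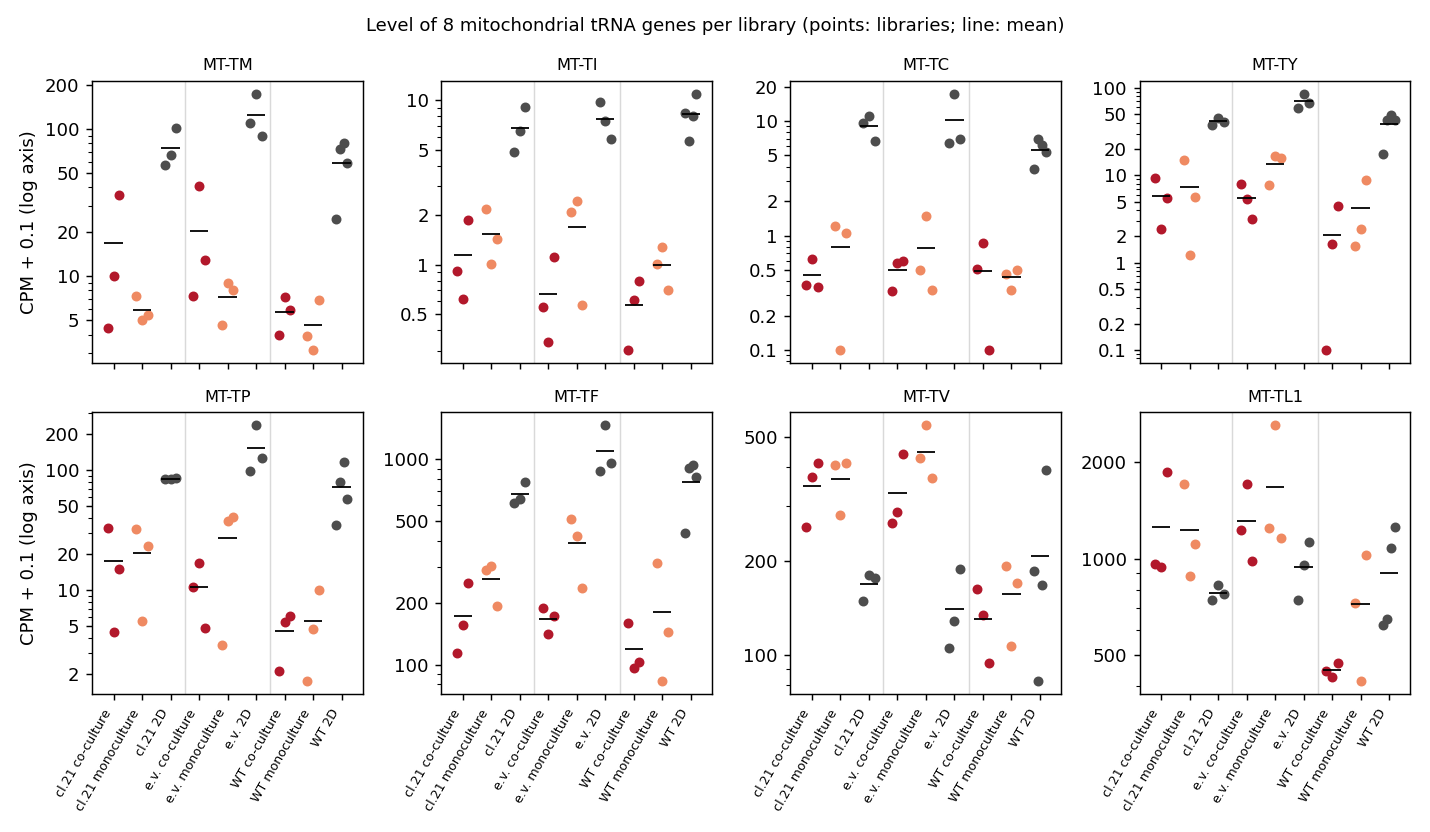
CPM plus 0.1 on a log axis (vertical) of 8 tRNA genes in each library of the 9 groups, with points as libraries and lines as means. MT-TI libraries lie at 0.203 to 2.32 CPM in HoxBan and at 4.73 to 10.8 CPM in 2D, while MT-TV does not fall in cl.21 or e.v.

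MT-TF, the first gene of the heavy-strand transcript, had more counts than these. In cl.21 cells MT-TF stood at 113, 156 and 249.9 CPM in co-culture, 287, 303 and 193 CPM in monoculture, and 611, 638 and 771 CPM in 2D. In e.v. cells MT-TF had 189, 141 and 172 CPM in co-culture, 509, 422 and 235 CPM in monoculture, and 877, 1462 and 957 CPM in 2D. WT cells had MT-TF at 159, 95.9 and 103 CPM in co-culture, 313, 82.6 and 144 CPM in monoculture, and 438, 906, 934 and 819 CPM in 2D. Monoculture lay below 2D in every library of each line. On the log2 scale MT-TF changed by -1.37 ± 0.366 in cl.21, -1.50 ± 0.367 in e.v. and -2.10 ± 0.361 in WT (adjusted p = 0.00902, 0.00432 and 0.000252). Without monoculture library 24 the cl.21 value was -1.19 and the call was lost (adjusted p = 0.0602).

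MT-TS2 ran from 1.19 to 12.7 CPM over the HoxBan libraries and from 1.86 to 28.5 CPM over the 2D libraries. It fell by 2.04 on the log2 scale in cl.21, by 2.65 in e.v. and by 1.79 in WT (adjusted p = 0.0161, 0.00224 and 0.0421). In WT the libraries overlapped, with 1.64 to 3.01 CPM in monoculture and 1.86 to 12.7 CPM in 2D. The calls in cl.21 (without monoculture library 24, -1.93, or 2D library 2, -1.65) and in WT (without monoculture library 16, 19 or 29, -1.61, -1.71 and -2.12, or 2D library 8 or 12, -1.41 and -1.66) depended on single libraries.

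The 3 minus-strand tRNA genes tested, MT-TC, MT-TY and MT-TP, were called lower in every line. Of the 10 plus-strand tRNA genes tested, 4 were lower in cl.21, 4 in e.v. and 7 in WT. Of all genes tested, 10.0%, 11.3% and 8.59% were lower in these lines. The other minus-strand tRNA genes did not pass the filter, and MT-TC can have passed it through 2D alone. No difference between the strands is therefore read from these counts. Among those called in WT only, MT-TT fell by 1.85 ± 0.443 (adjusted p = 0.00520), MT-TL2 by 1.41 ± 0.418 (adjusted p = 0.0231) and MT-TH by 1.94 ± 0.664 (adjusted p = 0.0478). MT-TH and MT-TL2 lost their calls without single WT libraries. For MT-TH these were monoculture library 16, 19 or 29 and 2D library 8, 12 or 27 (-2.29 to -1.47). For MT-TL2 they were monoculture library 19 or 29 (-1.27 and -1.41) and 2D library 8 or 12 (-1.29 and -1.31).

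MT-TV, which lies between the rRNA genes, went the other way in both cl.21 and e.v. cells. In cl.21 cells MT-TV stood at 257, 371 and 413 CPM in co-culture, 406, 281 and 413 CPM in monoculture, and 148, 179.8 and 176 CPM in 2D. In e.v. cells MT-TV had 265, 288 and 439.6 CPM in co-culture, 427, 544 and 368 CPM in monoculture, and 105, 128 and 188 CPM in 2D. WT cells had MT-TV at 163, 134 and 94.1 CPM in co-culture, 193, 106 and 170.1 CPM in monoculture, and 186, 82.0, 168 and 391 CPM in 2D. Monoculture lay above 2D in all cl.21 and e.v. libraries, while in WT the groups overlapped. On the log2 scale MT-TV changed by 1.12 ± 0.352 in cl.21 and 1.67 ± 0.357 in e.v. (adjusted p = 0.0242 and 0.00145), and -0.40 ± 0.330 in WT (adjusted p = 0.462). Whether WT differed from the other lines was not tested. The cl.21 call was lost without monoculture library 4 or 24 (1.05 and 1.03) or 2D library 1, 2 or 31 (1.04, 1.18 and 1.16).

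In cl.21 cells MT-TL1 stood at 964, 944 and 1863 CPM in co-culture, 1704, 884 and 1106 CPM in monoculture, and 741, 826 and 776 CPM in 2D. In e.v. cells MT-TL1 had 1225, 1708 and 984 CPM in co-culture, 1243, 2598 and 1157 CPM in monoculture, and 743, 955 and 1127 CPM in 2D. WT cells had MT-TL1 at 446, 429 and 474 CPM in co-culture, 728, 414 and 1025 CPM in monoculture, and 619, 647, 1081 and 1251 CPM in 2D. MT-TL1, with the most counts of the tRNA genes, lay higher in monoculture than in 2D in all cl.21 and e.v. libraries and overlapped in WT, and it was called in none of these comparisons.

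MT-CO1, the catalytic subunit of cytochrome c oxidase, was the mRNA that rose in all 3 lines. In cl.21 cells MT-CO1 stood at 6845, 2798 and 5351 CPM in co-culture, 4181, 2626 and 5719 CPM in monoculture, and 1989, 693 and 459.8 CPM in 2D. In e.v. cells MT-CO1 had 11580, 4942 and 2890 CPM in co-culture, 2937, 6960 and 7377 CPM in monoculture, and 575, 1651 and 424 CPM in 2D. WT cells had MT-CO1 at 2603, 4464 and 4865 CPM in co-culture, 2222, 4341 and 3503 CPM in monoculture, and 587, 588, 1885 and 708 CPM in 2D. Every HoxBan library, at 2222 to 11580 CPM, lay above every 2D library, at 424 to 1989 CPM. Of the 28 members tested it was the 1 that was higher in all 18 HoxBan libraries than in all 10 2D libraries, which 2.56% of all genes were. In this way 3 members (MT-TI, MT-TC and MT-TY) were lower, beside 4.26% of all genes. Such tRNA genes can pass the filter through 2D alone, and MT-TC and MT-TY overlap by their ends. These 3 are therefore not read as an excess over all genes. MT-TQ, which did not pass the filter, was also lower in all 18. In edgeR the log2 fold change of MT-CO1 in monoculture over 2D was 2.00 ± 0.588 in cl.21, 2.70 ± 0.604 in e.v. and 1.83 ± 0.532 in WT (adjusted p = 0.0170, 0.00206 and 0.0200). The cl.21 call was lost without monoculture library 24 (1.70) or 2D library 2 or 31 (1.77 and 1.64), and the WT call without monoculture library 19 or 29 (1.60 and 1.78) or 2D library 5, 8 or 27 (1.66, 1.66 and 1.72). In e.v. it held without any 1 library, at 2.37 to 3.52.

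MT-ND4L, a complex I subunit encoded together with MT-ND4, was called in e.v. only. In cl.21 cells MT-ND4L stood at 1621, 654 and 1450 CPM in co-culture, 1747, 845 and 1364 CPM in monoculture, and 1070, 528 and 372 CPM in 2D. In e.v. cells MT-ND4L had 1994, 1535 and 830.1 CPM in co-culture, 1241, 2630 and 1859 CPM in monoculture, and 422, 727 and 372 CPM in 2D. WT cells had MT-ND4L at 617, 1128 and 882 CPM in co-culture, 804, 966 and 1222 CPM in monoculture, and 462, 607, 923 and 536 CPM in 2D. Monoculture lay above 2D in all e.v. libraries, but cl.21 and WT overlapped. The MT-ND4L change on that scale was 1.01 ± 0.396 in cl.21, 1.91 ± 0.406 in e.v. and 0.66 ± 0.365 in WT (adjusted p = 0.0735, 0.00133 and 0.243). The difference between cl.21 and e.v. in this change was -0.91 ± 0.556, with an adjusted p of 1.00 in the interaction test.

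MT-ND6, the complex I subunit on the minus strand, was not called. In cl.21 cells MT-ND6 stood at 131, 94.2 and 59.5 CPM in co-culture, 73.9, 94.3 and 86.6 CPM in monoculture, and 191, 74.3 and 76.2 CPM in 2D. In e.v. cells MT-ND6 had 146, 107 and 119 CPM in co-culture, 75.5, 135 and 123 CPM in monoculture, and 75.8, 275 and 45.8 CPM in 2D. WT cells had MT-ND6 at 19.3, 80.9 and 67.4 CPM in co-culture, 21.8, 37.1 and 65.5 CPM in monoculture, and 23.5, 39.4, 134 and 39.6 CPM in 2D. The 2D library with the high mitochondrial share was the highest of all in each line. The log2 fold change of monoculture over 2D was -0.42 in cl.21, -0.25 in e.v. and -0.52 in WT (adjusted p = 0.665, 0.797 and 0.592). In cl.21 cells MT-CYB stood at 4927, 1752 and 2533 CPM in co-culture, 2813, 2031 and 5842 CPM in monoculture, and 6533, 1804 and 1115 CPM in 2D. In e.v. cells MT-CYB had 6242, 2006 and 1494 CPM in co-culture, 2062, 3804 and 4796 CPM in monoculture, and 1024, 3926 and 1118 CPM in 2D. WT cells had MT-CYB at 1626, 3148 and 4922 CPM in co-culture, 1606, 4926 and 2486 CPM in monoculture, and 1597, 1409, 6714 and 1409 CPM in 2D. MT-CYB, the complex III subunit on the other strand beside MT-ND6, overlapped between the cultures, at 0.18 in cl.21, 0.81 in e.v. and 0.11 in WT (adjusted p = 0.894, 0.441 and 0.932). Beyond MT-CO1 and MT-ND4L none of the 13 mRNA genes was called in any line, although the log2 fold change of 11 of the 12 plus-strand mRNA genes was above 0 in cl.21, of 12 in e.v. and of 11 in WT.

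The mRNA calls changed without the 3 2D libraries of high mitochondrial share. These libraries were picked for that share after seeing the data, so leaving them out lowers the share in 2D by construction. The calls and p-values without them describe this choice and are no separate support. In cl.21, 6 members were then higher (6.78% of all genes were), in e.v. 10 (6.98%) and in WT 6 (3.91%). MT-ND2, MT-CO2, MT-ND4 and MT-ND5 joined MT-CO1 as higher in all 3 lines. MT-ND4 stood at a log2 fold change of 2.27 in cl.21, 3.12 in e.v. and 2.02 in WT (adjusted p = 0.0179, 0.00267 and 0.0164), and MT-CO1 at 2.86, 3.52 and 2.42. MT-RNR2 was called higher in e.v., at 1.59 (adjusted p = 0.0400), and stood at 1.19 in cl.21 and 1.16 in WT (adjusted p = 0.125 and 0.0968). The difference between lines was not tested. The lower members were 6 in cl.21 (6.31%), 6 in e.v. (7.11%) and 7 in WT (5.96%). MT-TP was then no longer called in cl.21 or e.v. (-2.04 and -2.06), nor was MT-TV in cl.21 (1.04). MT-TH, MT-TL2 and MT-TS2 were no longer called in WT (-1.80, -1.31 and -1.66). Without the filter on low counts and with all 28 libraries, the higher members were 8 in cl.21 (3.98% of all genes), 14 in e.v. (4.19%) and 7 in WT (2.28%), and the lower members were 8 in cl.21 (4.36%), 11 in e.v. (4.54%) and 12 in WT (3.67%).

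Ratios of 2 members within a library do not depend on library scaling. The ratio of MT-RNR2 to MT-CO1 counts was 10.8 to 13.9 in cl.21 monoculture and 29.4 to 41.8 in 2D. It was 8.37 to 19.9 in e.v. monoculture and 48.2 to 61.1 in 2D. It was 12.2 to 16.7 in WT monoculture and 21.9 to 42.4 in 2D. The ratio was thus lower in monoculture than in 2D in each line without overlap, by -1.56 on the log2 scale over the 3 lines (-1.52, -2.06 and -1.11 in cl.21, e.v. and WT). The exact two-sided permutation test within lines gave p = 0.000143, adjusted over 9 tests to 0.00129. MT-CO1, the denominator, was higher in all HoxBan than in all 2D libraries, so the test partly restates that rise. A lower ratio need not mean a lower rRNA part. That part was 46.0% to 53.5% of the mitochondrial counts in cl.21 monoculture and 43.6% to 59.8% in 2D. In WT it was 46.9% to 58.3% and 34.35% to 62.25%, again with overlap. In e.v. it was lower in monoculture, at 62.5% or less against 63.5% or more in 2D.

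In co-culture the ratio of MT-RNR2 to MT-CO1 was 15.0 to 31.4 in cl.21, 7.22 to 26.6 in e.v. and 18.2 to 31.0 in WT. Over monoculture it was higher by 0.62 on the log2 scale, in all 3 lines (0.83, 0.32 and 0.72), with an exact permutation p of 0.0325 and an adjusted p of 0.0731. Without co-culture library 14 of e.v. the difference was 0.82 and its adjusted p was 0.00900. Between cl.21 and e.v. it was -0.06 (adjusted exact permutation p = 0.844), with the direction differing among cultures.

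The ratio of MT-RNR1 to MT-RNR2 was lower by 0.31 on the log2 scale in monoculture than in 2D (exact permutation p = 0.0240, adjusted 0.0720). It differed by -0.17 between co-culture and monoculture (adjusted p of the exact test 0.199) and by -0.20 between cl.21 and e.v. (adjusted exact p = 0.199). The ratio of MT-ND6 to MT-CYB, genes of opposite strands, was lower by 0.76 in monoculture than in 2D, in all 3 lines (exact permutation p = 0.0128, adjusted 0.0575). It differed by 0.34 between co-culture and monoculture and by -0.42 between cl.21 and e.v. (adjusted exact permutation p = 0.321 and 0.204). With all libraries, 1 of the 9 tests passed the threshold, that of MT-RNR2 over MT-CO1 in monoculture against 2D. For MT-ND6 over MT-CYB in monoculture against 2D the exact test passed without any 1 of 5 libraries (cl.21 libraries 7 and 1, e.v. library 32 and WT libraries 29 and 5, adjusted p = 0.0135 to 0.0450). For MT-RNR1 over MT-RNR2 it passed without cl.21 library 1 or WT library 29 (adjusted exact p = 0.0321 and 0.0425). Without all 3 2D libraries of high share the differences were -1.68 for MT-RNR2 over MT-CO1, -0.38 for MT-RNR1 over MT-RNR2 and -0.83 for MT-ND6 over MT-CYB (adjusted exact p = 0.00450, 0.0645 and 0.0645).

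**Figure D4:**
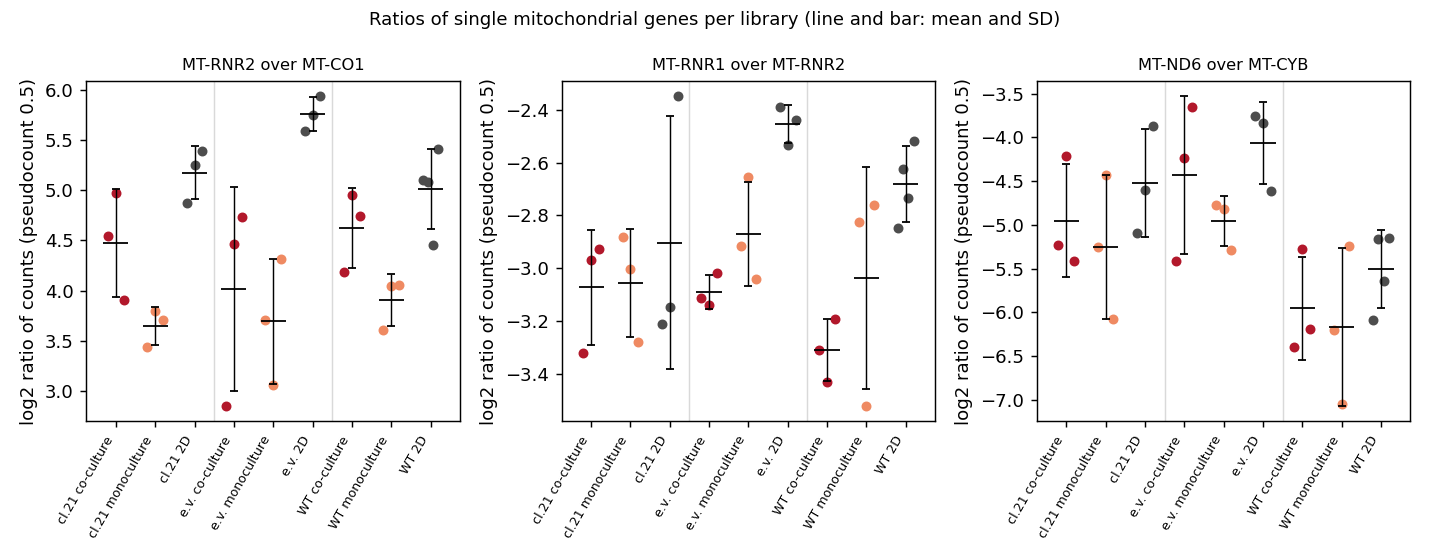
Log2 ratio of the counts of MT-RNR2 over MT-CO1, MT-RNR1 over MT-RNR2 and MT-ND6 over MT-CYB (vertical axes, pseudocount 0.5) in each library of the 9 groups, with the mean and SD. For MT-RNR2 over MT-CO1 the monoculture libraries lie below the 2D libraries in all 3 lines, by 1.11 to 2.06 on average.

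With the filter on low counts, co-culture against monoculture called no member in any single line. Without the filter some members were called in each line, as given further below. edgeR called 0 of 28 members and 0% of all 12849 genes in either direction in each line, DESeq2 called 0 members, and 4 members in cl.21, 3 in e.v. and 0 in WT had an unadjusted p under 0.05. Averaged over the 3 lines, MT-TF was lower by 0.80 ± 0.211 on the log2 scale (adjusted p = 0.0469), the 1 member lower beside 1.18% of all genes, and 0 were higher beside 0.817%. This call was lost in 14 of the 24 alternatives. They included leaving out any 1 of co-culture libraries 17, 21, 18, 22, 3 and 20 or of monoculture libraries 4, 7, 24, 11, 15 and 16, which gave values from -0.58 to -0.89. MT-RNR2 averaged 0.74 ± 0.303 (adjusted p = 0.176), MT-TM 1.10 ± 0.364 (adjusted p = 0.0959) and MT-CO1 0.22 ± 0.327 (adjusted p = 0.768).

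cl.21 against e.v. addresses the HIF1A knockout on the same vector background, within the limit of 1 clone. edgeR called 0 of 28 members in co-culture (0.506% of all genes were higher and 0.662% lower), 0 in monoculture (0.545% and 0.576%) and 0 in 2D (0.537% and 0.467%). DESeq2 called 0 in each, and 1 member in co-culture, 0 in monoculture and 1 in 2D had an unadjusted p under 0.05. The change between monoculture and 2D was also compared between cl.21 and e.v., with 0 members called by edgeR, 0 by DESeq2, and 0 at an unadjusted p under 0.05. Without the filter on low counts some members were called between cl.21 and e.v. in monoculture and in 2D, as given further below. The standard errors were wide, and a p above the threshold does not show that the lines were alike. For MT-RNR2, cl.21 against e.v. gave a log2 fold change of 0.28 ± 0.522 in co-culture, -0.63 ± 0.523 in monoculture and -0.45 ± 0.522 in 2D (SE), and for MT-CO1 -0.37 ± 0.567, -0.46 ± 0.568 and 0.24 ± 0.568. For MT-ND6 it gave -0.38 ± 0.582, -0.39 ± 0.580 and -0.22 ± 0.573. Of 9 tested HIF target genes linked to mitochondria or to pyruvate use, 1 was lower in cl.21 than in e.v. in each culture and 0 were higher. LDHA, which reduces pyruvate to lactate, was lower in cl.21 than in e.v. in co-culture (385 ± 64.8 and 822 ± 98.6 CPM, SD, n = 3 each, adjusted p = 0.04997 in edgeR) and in monoculture (389 ± 57.2 and 875 ± 239 CPM, adjusted p = 0.0311 in edgeR). PDK1, the kinase that inhibits pyruvate dehydrogenase, was lower in 2D (13.0 ± 3.19 and 51.2 ± 15.4 CPM, adjusted p = 0.0293 in edgeR).

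HIF target genes also differed from WT: 6 of the 9 were lower in cl.21 and 3 in e.v., with BNIP3, a mitophagy receptor, lower by 2.91 ± 0.362 in cl.21 (adjusted p = 3.18e-06) and by 1.11 ± 0.329 in e.v. (adjusted p = 0.0227). Against WT, both selected lines had higher levels of several tRNA genes in the mean of the 3 cultures, which need not hold in each culture. MT-TV, MT-TL1 and MT-TP, called in both lines, overlapped WT in 2D. There MT-TV stood at 148 to 179.8 CPM in cl.21, 105 to 188 CPM in e.v. and 82.05 to 391 CPM in WT. MT-TL1 stood at 741 to 826, 743 to 1127 and 619 to 1251 CPM in the same order. Whether the difference from WT depended on the culture was not tested. In cl.21, 4 members were higher (14.3%, beside 7.68% of all genes) and 0 were lower (beside 6.75%, with 9 members at an unadjusted p under 0.05 in either direction and 0 called lower by DESeq2). They were MT-TV (0.78 ± 0.198, adjusted p = 0.00824), MT-TL1 (0.68 ± 0.192, adjusted p = 0.0167), MT-TP (1.39 ± 0.411, adjusted p = 0.0235) and MT-TL2 (0.71 ± 0.240, adjusted p = 0.0457). In e.v., 7 members were higher (25.0%, beside 7.53%) and 0 were lower (beside 7.04%, with 9 members at an unadjusted p under 0.05 in either direction and 0 called lower by DESeq2). They were MT-TL1 (0.94 ± 0.192, adjusted p = 0.00162), MT-TV (0.77 ± 0.198, adjusted p = 0.00978), MT-TP (1.56 ± 0.416, adjusted p = 0.0117), MT-ND6 (1.24 ± 0.334, adjusted p = 0.0122), MT-TM (1.19 ± 0.338, adjusted p = 0.0181), MT-TY (1.35 ± 0.385, adjusted p = 0.0184) and MT-TF (0.70 ± 0.205, adjusted p = 0.0212). These comparisons share the WT libraries, and in both the fold change of all 13 tRNA genes tested was above 0.

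Single libraries decided some of these calls. In cl.21, MT-TP was lost without co-culture library 17 (1.11), monoculture library 4 (1.22), WT co-culture library 3 (1.26) or WT monoculture library 16 (1.23), MT-TL1 without monoculture library 4 (0.58), and MT-TL2 without any 1 of 12 libraries (cl.21 libraries 30, 4, 24, 1 and 31 and WT libraries 3, 20, 16, 19, 29, 5 and 27, 0.55 to 0.77). In e.v., MT-ND6 and MT-TF were lost without 2D library 26 (0.87 and 0.61), MT-TM without co-culture library 18 (0.85) and MT-TY without co-culture library 14 (1.22). MT-TV was called without any 1 library in both. MT-ND6 in cl.21 was 0.92 ± 0.333 above WT (adjusted p = 0.0644). The vectors and the selection were shared by both lines and cannot be told apart from their other differences from WT.

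Nuclear genes that act on mitochondrial RNA were set beside the members for monoculture against 2D. Of 21 tested genes of mitochondrial transcription and the nucleoid, 1 was higher and 4 were lower in each line, with a median log2 fold change of -0.20 in cl.21, -0.39 in e.v. and -0.15 in WT. Over all genes tested the median was -0.02, -0.01 and 0.01, and 10.1% were higher and 10.0% lower in cl.21, 10.3% and 11.3% in e.v., and 6.19% and 8.59% in WT. PPARGC1B, a coactivator of mitochondrial gene expression, fell to 9.58 ± 2.06 CPM in e.v. monoculture, against 35.2 ± 3.45 CPM in 2D (SD, n = 3 each, adjusted p = 0.000379 in edgeR). TFAM, which packages mitochondrial DNA and activates its promoters, was 929 ± 114 CPM in e.v. monoculture and 634 ± 48.5 CPM in 2D (adjusted p = 0.00912 in edgeR). MTERF1, a mitochondrial termination factor, was lower in cl.21 by 1.07 ± 0.235 on the log2 scale (adjusted p = 0.00183), and NRF1, which activates nuclear genes of mitochondrial proteins, was lower in e.v., at 3.12 ± 0.939 CPM in monoculture and 7.15 ± 1.07 CPM in 2D (adjusted p = 0.00341).

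Of 40 tested genes of mitochondrial RNA processing and decay, 3 were higher and 7 lower in cl.21, 4 and 3 in e.v., and 3 and 4 in WT (medians -0.09, -0.13 and -0.11). TRMT10C, a subunit of mitochondrial RNase P that cuts tRNA 5′ ends, was lower in all 3 lines, by 0.66 ± 0.131, 0.79 ± 0.132 and 0.84 ± 0.125 on the log2 scale in cl.21, e.v. and WT (adjusted p = 0.000761, 0.000119 and 5.30e-05). Its level was 52.9 ± 2.90 CPM in cl.21 monoculture, against 83.7 ± 7.05 CPM in 2D. PDE12, which removes A tails from mitochondrial RNA, was higher by 0.71 ± 0.157, 0.77 ± 0.156 and 0.57 ± 0.146 (adjusted p = 0.00189, 0.000912 and 0.00821). REXO2, an oligoribonuclease of mitochondria, was higher in e.v. by 0.56 and in WT by 0.66 (adjusted p = 0.0105 and 0.00229), and MRM3, an rRNA methyltransferase, was lower in cl.21 by 1.42 (adjusted p = 0.00112).

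The nuclear-encoded protein partners were compared with the same shares of all genes. Of 80 mitochondrial ribosomal protein genes tested, 3 were higher and 5 lower in cl.21, 3 and 3 in e.v., and 2 and 0 in WT. Of 37 nuclear complex I subunit genes, 0 were higher and 1 lower in cl.21, 3 and 2 in e.v., and 1 and 0 in WT. Of 37 nuclear subunit genes of complexes III, IV and V, 0 were higher and 1 lower in cl.21, 4 and 0 in e.v., and 4 and 0 in WT. For these lists the medians lay between -0.11 and 0.20. UQCRB, a complex III subunit, was 614 ± 51.2 CPM in WT monoculture (SD, n = 3) and 460 ± 13.5 CPM in 2D (SD, n = 4, adjusted p = 0.00910 in edgeR).

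Some other values were compared in the same way. Nuclear copies of mitochondrial genes share sequence with the members, and 17 of 403 passed the filter. Of these, 6 were higher in cl.21 (beside 10.1% of all genes), 6 in e.v. (beside 10.3%) and 2 in WT (beside 6.19%). MTCO1P40, a copy of MT-CO1, was 10.2 ± 4.39 CPM in cl.21 monoculture and 2.18 ± 1.12 CPM in 2D (SD, n = 3 each). Together the copies came to 0.453% to 0.728% of the mitochondrial counts in HoxBan and 0.364% to 0.5599% in 2D, so few reads were placed on them. NEAT1, a nuclear RNA, was higher in monoculture than in 2D by 1.18 ± 0.405 in cl.21 and 1.47 ± 0.411 in e.v. (adjusted p = 0.0407 and 0.0112), and was 1 of 2 library composition genes tested. In WT its share of the nuclear counts overlapped, at 0.00457% to 0.00813% in monoculture and 0.0034% to 0.0130% in 2D. MALAT1, another nuclear RNA, overlapped too, at 0.106% to 0.478% of the nuclear counts in HoxBan and 0.138% to 0.230% in 2D. The part of these in the members' changes was not tested. In bulk RNA, a change in the number of mitochondria per cell and a change in the RNA per mitochondrion cannot be told apart.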

How the data were processed

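The authors deposited 1 table of raw counts per Ensembl gene (60107 genes, 32 libraries), made from RNeasy Plus RNA with the Lexogen QuantSeq 3′ kit on a NextSeq500 and assigned to GRCh38. No source used here names the aligner, the counter, its strand setting or the annotation. Genes were named from an ID table and GENCODE 29, and 0.0679% of the counts lay in genes without a name. The members and gene lists were chosen with earlier results of these data known.

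The deposited counts of 28 libraries in 9 groups were tested with edgeR 4.0.16 in R 4.3.3 (TMM scaling, filterByExpr, quasi-likelihood F test, 19 residual degrees of freedom, 13 contrasts, Benjamini-Hochberg adjustment over 12849 genes, threshold 0.05). SE is the fold change divided by the root of F. Shares were sums of unscaled counts. Ratios (pseudocount 0.5) were tested by exact two-sided permutation of libraries within line or culture, with adjustment over 9 tests. Members with values for every library were 5 set genes and the 8 others of smallest adjusted p in any comparison, and MT-TL1 was added after its values were seen. From other lists, up to 4 genes of smallest adjusted p were eligible. Alternatives were DESeq2 1.42.0, its size factors, scaling without mitochondrial genes, no filter, only the groups compared and leaving out libraries. The scripts were tested on simulated data. The 4 WT libraries with inulin, mucin or stool are single and entered no test.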

Additional observations from a re-analysis of the deposited data

Results flagged for a closer look

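Library 12 of WT 2D lay far from the other 3 libraries of its group in the mitochondrial share and in 13 members. Chance alone marks about 1 in 20 groups in this way, and these members share a library, so they are not separate events. Its mitochondrial share was 14.1%, against 4.94% to 6.30% in the others. MT-ND1 stood at 3431 CPM (others 735 to 969), MT-ND2 at 7298 CPM (1151 to 1341) and MT-CO1 at 1885 CPM (587 to 708). MT-CO2 stood at 6589 CPM (1191 to 1293), MT-ATP8 at 10470 CPM (1784 to 2060) and MT-ATP6 at 10970 CPM (1798 to 1915). MT-CO3 stood at 13770 CPM (2817 to 3197), MT-ND3 at 8761 CPM (1868 to 2497) and MT-ND4 at 14590 CPM (2621 to 3145). MT-ND5 stood at 2651 CPM (650.3 to 762), MT-ND6 at 134.5 CPM (23.5 to 39.6), MT-CYB at 6714 CPM (1409 to 1597) and MT-TT at 23.9 CPM (7.59 to 8.11). The members so marked were 12 of the 13 mRNA genes and 1 tRNA gene, and neither rRNA gene was among them.

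The 4 single WT libraries, which entered no comparison, had a tRNA part of the mitochondrial counts above the highest WT monoculture library (2.01%). It was 3.04% in the library with stool in YCFA agar with inulin, 2.11% with stool and mucin, 2.73% in monoculture with inulin and 7.32% in monoculture with mucin. Each is 1 library with no replicate.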

How the results depend on the processing

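Across the 42 calls of single members, DESeq2 kept 41, DESeq2 size factors 42, scaling without mitochondrial genes 42, no filter 41, only the groups compared 38 and leaving out the 3 2D libraries of high share 33. Leaving out 1 library kept 349 of 418, and none changed direction. No paired analysis was possible because library numbers are not shared between groups.

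Without a filter, members higher in monoculture than in 2D were 8 in cl.21, 14 in e.v. (11 lower) and 7 in WT. In co-culture against monoculture they were 3 higher in cl.21 (beside 0.0497% of all genes), 1 higher and 3 lower in e.v. (0.00994% and 0.0729%), 1 higher in WT (0.0431%), and 3 higher and 3 lower in the mean of the lines (0.547% and 1.05%). For cl.21 against e.v. they were 2 lower in monoculture (0.543%), and 2 higher and 3 lower in 2D (0.50% and 0.553%). Against WT they were 10 higher in cl.21 (3.76%), and 13 higher and 1 lower in e.v. (3.54% and 3.19%). With only the groups compared, the mean of co-culture against monoculture gave 0 lower and cl.21 against e.v. in 2D 1 lower. The 3 2D libraries of high share were picked after seeing the data. Without them, higher members were 6 in cl.21, 10 in e.v. and 6 in WT, and the mean of co-culture against monoculture gave 0 lower. The cause of these shifts was not tested.

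Leaving out single libraries gave 0 to 3 higher and 4 to 7 lower members in cl.21 monoculture against 2D, 3 to 6 higher in e.v., 0 to 1 higher in WT, 0 to 1 higher and 0 to 1 lower in the mean of co-culture against monoculture, and 1 to 6 higher in cl.21 against WT. The log2 ratio of MT-RNR2 over MT-CO1 ran from 0.50 to 0.82 in co-culture against monoculture and from -0.25 to 0.06 in cl.21 against e.v. (0.0364, 0.0165, 0.0619 and 0.0451 where its sign turned). MT-RNR1 over MT-RNR2 ran from -0.36 to -0.22 and MT-ND6 over MT-CYB from -0.91 to -0.61 in monoculture against 2D. Without the 2 rRNA genes, the log2 share ratio of cl.21 co-culture over monoculture was -0.19.

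Depth limits the tRNA genes most: MT-TC and MT-TI rest on a few counts per HoxBan library.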

Other observations

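The 4 single WT libraries gave mitochondrial shares of 9.04% (stool with inulin agar), 8.04% (stool with mucin agar), 7.70% (monoculture with inulin) and 7.29% (monoculture with mucin), within the range of the WT monoculture libraries (6.36% to 15.5%). Their mRNA parts of the mitochondrial counts were 45.5%, 49.7%, 45.4% and 45.0%, and their rRNA parts 51.4%, 48.2%, 51.9% and 47.7%.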
